A study of Mus musculus with 4 samples.

Results

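Scavenger receptors were examined in cultured mouse macrophages from 2 genotypes. The group consisted of 8 genes chosen by symbol (Msr1, Marco, Cd36, Scarb1, Scarb2, Stab1, Olr1 and Colec12) out of 34745 genes in the count table, and each symbol matched a single row. Low counts removed none of the 8, which were all among the 12418 genes tested. RNA-seq of bone marrow-derived macrophages (BMDMs) was performed on 4 libraries. The libraries labelled WT were the floxed controls (G3bp1 f/f), and those labelled KO came from G3bp1mac-/- mice, in which a Cre recombinase under the Lyz2 promoter acts on the floxed gene in myeloid cells, granulocytes included. Each genotype had 2 libraries numbered 1 and 2. The cells were grown in serum-containing medium, and the labels name no stimulus. Age and sex are stated for purchased C57BL/6J mice, which were female, but not for the floxed mice. Whether the libraries of a genotype came from separate mice is not given in the sources used here, so p-values measure only the spread between these libraries.

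Scavenger receptors are surface or lysosomal membrane proteins that bind polyanionic ligands such as oxidised lipoproteins, bacterial components and apoptotic cells. They are sorted into classes by structure rather than by ligand. Class A receptors carry a collagenous stalk and include MSR1, MARCO and COLEC12. Class B receptors cross the membrane at both ends and include CD36, which takes up oxidised LDL and fatty acids, SCARB1, which exchanges cholesterol with HDL, and SCARB2, a protein of the lysosomal membrane. OLR1 (LOX-1) is a class E receptor with a C-type lectin fold that binds oxidised LDL, and STAB1 is a class H receptor that clears matrix fragments such as SPARC. Macrophages use these proteins to take up modified lipids, microbes and dying cells.

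The total gene counts lay between 16724241 and 19747909 per library, and a count of 0 is compatible with at most 0.152 to 0.188 CPM by counting error alone, where CPM is the count relative to the TMM-scaled library total. G3bp1, the targeted gene, had 1691 and 2875 counts in the WT libraries against 1307 and 2296 in the KO libraries. KO differed from WT by -0.61 on the log2 scale (SE 0.40), with edgeR's quasi-likelihood test giving 0.904 as the adjusted p. Single exons are not resolved by gene counts, so every direction for KO rests on the labels. On the first principal component, which held 56.0% of the variance, both libraries numbered 1 lay on one side and both numbered 2 on the other. The second, with 34.9%, separated the genotypes in the same way. The labels do not say what a number marks. All 10 macrophage markers examined, such as Csf1r, Adgre1 and Lyz2, were tested, and their summed level was between 18466 and 23380 CPM. The 10 stromal markers summed to 86.0 and 101 CPM in WT and to 381 and 351 CPM in KO. In bulk RNA, fewer cells of a type and less RNA per cell cannot be told apart.

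Positions are those of the deposited table. The labels name the mm39 build, but 6 of the 8 members have the same start and end as in GENCODE M21 on GRCm38. Msr1 and Colec12 differ from it in their span. Marco (ENSMUSG00000026390) lies on chromosome 1 from 120474538 to 120505024, Stab1 (ENSMUSG00000042286) on chromosome 14 from 31139013 to 31168641, and Olr1 (ENSMUSG00000030162) on chromosome 6 from 129485244 to 129507165. Msr1 (ENSMUSG00000025044) lies on chromosome 8 from 39581700 to 39642678 and Colec12 (ENSMUSG00000036103) on chromosome 18 from 9707648 to 9877995. The 3 class B genes are all on chromosome 5. Cd36 (ENSMUSG00000002944) spans 17781690 to 17888801, Scarb2 (ENSMUSG00000029426) 92441314 to 92506833 and Scarb1 (ENSMUSG00000037936) 125277087 to 125341094. Colec12 is on the plus strand and the others are on the minus strand. Of the 8 members, only Stab1 shares exon bases with another annotated gene in GENCODE M21, namely 112 bases with Nt5dc2 on the opposite strand. Whether counting used the strand is not given in the sources used here, so some of the Stab1 counts may belong to Nt5dc2.

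Levels of different genes were compared on the deposited FPKM scale, which divides by gene length. Cd36 was the most abundant member in every library, with 408 and 375 FPKM in WT and 395 and 371 FPKM in KO. Msr1 followed with a mean of 107 ± 53.9 FPKM and Scarb2 with 37.5 ± 5.15 FPKM (SD over the 4 libraries). Colec12 had 16.0 ± 2.66 FPKM, Olr1 13.0 ± 14.9, Marco 7.78 ± 1.997, Scarb1 3.59 ± 0.746 and Stab1 1.60 ± 0.448 FPKM. Neighbours in this order did not overlap between libraries, except Olr1 with Colec12 and with Marco.

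On this scale the order depended on the replicate number through a single member. In both libraries numbered 1, Olr1 was the lowest of the 8, and in both numbered 2 it was the fourth, above Colec12. The other 7 members kept the same order among themselves in all 4 libraries. FPKM rests on the gene lengths the authors used, which can be read back from count and FPKM. They were 8348 bases for Cd36 and 3322 for Colec12, where the merged exons of GENCODE M21 come to 3590 and 8725 bases. With those annotated lengths Colec12 was at 6.06 ± 0.840 CPM per kilobase, below Marco at 8.25 ± 2.59, and Cd36 stayed first at 903 ± 74.4. Msr1 was then below Scarb2 in both libraries numbered 1 and above it in both numbered 2, and the range of Colec12 overlapped with those of Marco and Scarb1. The places of Colec12 and Msr1 in the order therefore depend on the length used.

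By raw counts, the 8 genes together took between 0.401% and 0.424% of a library. Cd36 alone made up 84.3% and 73.9% of the members' counts in WT replicates 1 and 2, and 82.1% and 75.0% in KO replicates 1 and 2. The share of Msr1 moved the opposite way, from 5.72% to 15.4% in WT and from 6.41% to 13.9% in KO between numbers 1 and 2. Without Cd36, the members summed to 665 and 1176 CPM in WT and to 646 and 1036 CPM in KO. The libraries numbered 2 thus held the higher sum in both genotypes, mainly through Msr1 and Olr1. Scarb1, Scarb2, Stab1 and Colec12 were lower in both libraries numbered 2.

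**Figure D1:**
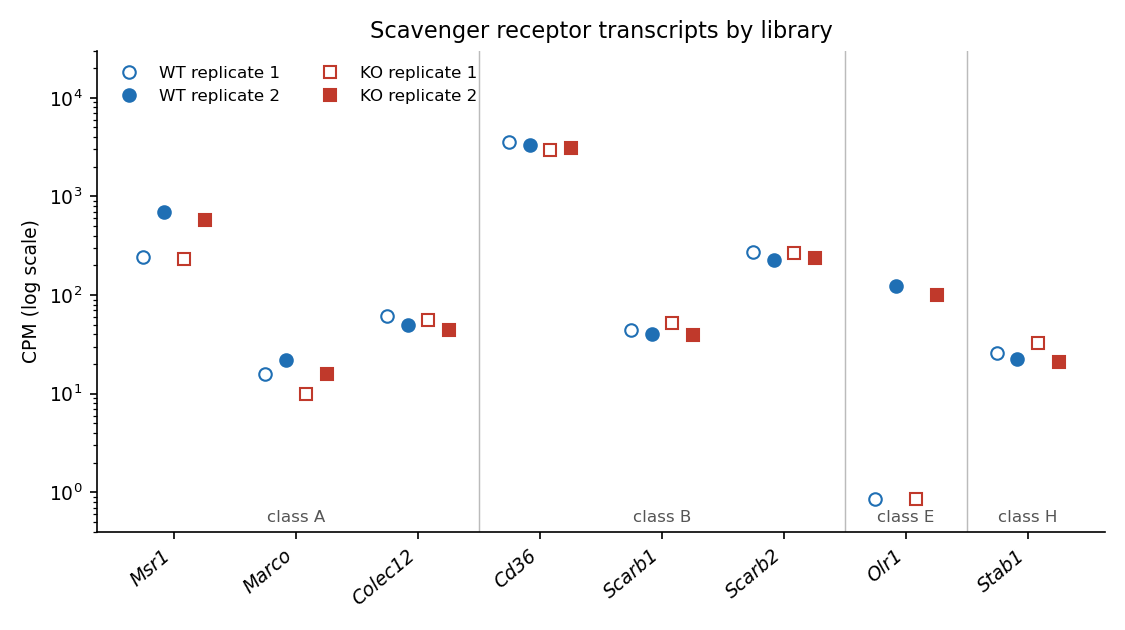
Level of each scavenger receptor in each library, in CPM on a log axis, grouped by receptor class (circles, WT; squares, KO; open, replicate 1; filled, replicate 2). Olr1 sits near 0.86 CPM in both libraries numbered 1 and at 124 and 99.7 CPM in those numbered 2, while Cd36 stays between 2957 and 3570 CPM.

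Olr1, which encodes the oxidised LDL receptor LOX-1, had 14 and 1971 counts in WT replicates 1 and 2 and 16 and 1962 counts in KO replicates 1 and 2. On the TMM scale this was 0.863 and 124 CPM in WT and 0.859 and 99.7 CPM in KO. Both libraries numbered 1 were low, though above what a count of 0 allows, and both libraries numbered 2 were high whatever the genotype. The ratio of number 2 to number 1 was 143-fold in WT (exact 95% interval 85.2 to 263) and 116-fold in KO (71.3 to 204), where the intervals cover counting error only. By the smaller of its 2 log2 ratios, Olr1 ranked 10 among the 12418 tested genes. This difference runs between libraries that the labels call replicates of one genotype, and no test of it was made.

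Msr1, the macrophage class A receptor for acetylated and oxidised LDL, had 3932 and 11024 counts in the WT libraries against 4300 and 11358 in the KO libraries, or 242 and 692 CPM against 231 and 577 CPM. Its libraries numbered 2 were 2.85-fold higher in WT (counting interval 2.75 to 2.96) and 2.50-fold higher in KO (2.41 to 2.59). Olr1 and Msr1 were the 2 of 8 members at least 2-fold higher in number 2 within both genotypes, a difference that 4.36% of all tested genes showed. In the other direction there were 0 members, against 2.42% of tested genes. Marco, a further class A receptor that binds bacteria and particles, was 1.40-fold higher in WT (1.19 to 1.66) and 1.58-fold higher in KO (1.31 to 1.91), but its KO replicate 2 did not exceed its WT replicate 1 on the TMM scale.

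The other members lay the opposite way or showed no shared direction. Scarb1, Scarb2, Stab1 and Colec12 were lower in both libraries numbered 2 than in both numbered 1, as were 23.2% of the tested genes, and Msr1 and Olr1 were higher in both, as were 25.2%. In all, 6 of the 8 did not overlap between the numbers, against 48.4% of tested genes. The differences were small for the 4 that were lower. The log2 ratio of number 2 to 1 was -0.14 in WT and -0.39 in KO for Scarb1, and -0.28 and -0.14 for Scarb2. It was -0.21 and -0.64 for Stab1, and -0.30 and -0.34 for Colec12. For Cd36 it was -0.10 in WT and 0.07 in KO, so that the most abundant member was also the steadiest, with 91.6% of tested genes having a larger SD of log2 CPM over the 4 libraries. Scaling by library totals alone, chosen after seeing the data, placed all 8 members without overlap between the numbers, Marco on the higher side and Cd36 on the lower. Under that scaling 17.3% of tested genes were higher and 27.5% lower in both libraries numbered 2.

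Markers of other cell types were set beside the Olr1 and Msr1 difference. The summed macrophage level was 23380 and 21629 CPM in WT and 18466 and 22106 CPM in KO for numbers 1 and 2. The 10 dendritic cell markers summed to 271 and 386 CPM in WT and to 394 and 427 CPM in KO, with Itgax, which macrophages also express, holding most of the counts. Neutrophil markers summed to between 67.5 and 102 CPM, most of it from Csf3r, which macrophages also express, with Mpo and Elane at 0 counts. Endothelial markers summed to between 16.7 and 20.9 CPM, with Emcn and Tek at 0. Of the 6 adipocyte markers, 5 were at 0 in all libraries. The macrophage sum rests largely on Lyz2, as the dendritic and neutrophil sums do on Itgax and Csf3r, and single markers moved with the numbers. At least 2-fold higher in number 2 within both genotypes were 2 of the 10 macrophage markers, Cd14 and Spi1, and Fcgr1 was lower by as much. Cd14 had 125 and 683 CPM in WT and 106 and 533 CPM in KO. Of the 5 dendritic cell markers tested, Zbtb46 and Btla were also higher by that measure, at counts between 8 and 75. By the same measure the stromal marker Pdgfrb was higher (log2 ratios of 2.88 in WT and 2.08 in KO), and the monocyte marker Ccr2 (-1.72 and -2.22) and the endothelial marker Kdr (-1.16 and -1.61) were lower. The part of other cells in the Olr1 and Msr1 levels was not tested.

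The genes most alike to Olr1 and Msr1 over the 4 libraries were sought by the root mean square difference of centred log2 CPM. For Olr1 these were Hcar2 (0.19), Tarm1 (0.29) and Tnf (0.31). Tnf, which encodes a cytokine released by activated macrophages, had 122 and 21261 counts in the WT libraries against 98 and 14019 in the KO libraries. Hcar2, a receptor for hydroxybutyrate, had 7 and 973 counts in the WT libraries against 6 and 761 in the KO libraries. Near to Msr1 were Tapbpl (0.044) and Marcks (0.046). Marcks had 1432 and 4137 counts in the WT libraries against 1702 and 4191 in the KO libraries. Such likeness over 4 libraries is a description and carries no test.

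**Figure D2:**
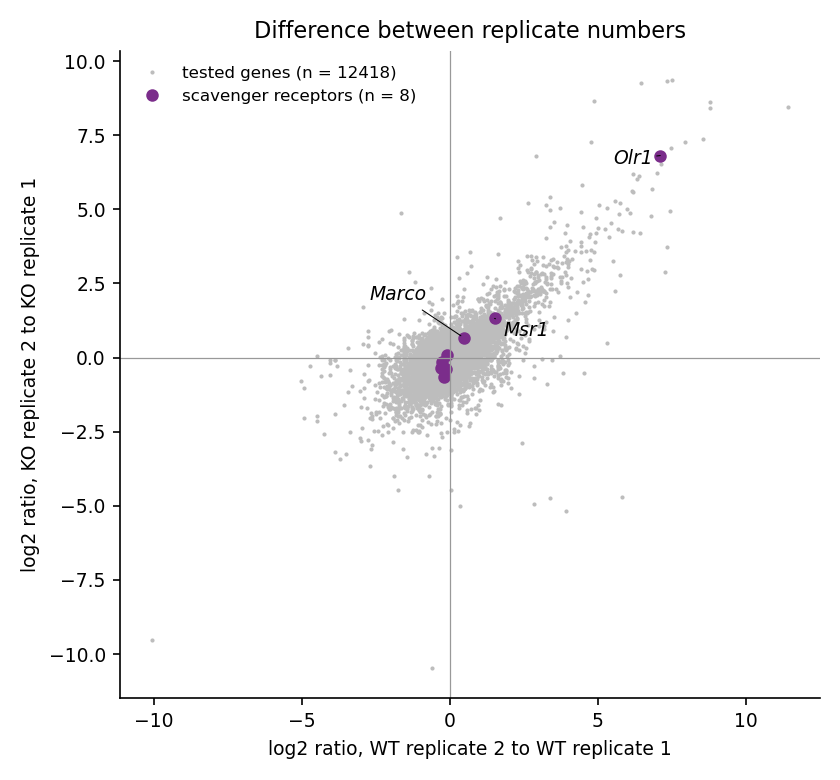
Log2 ratio of replicate 2 to replicate 1 in WT (x axis) and in KO (y axis) for the 12418 tested genes (grey) and the 8 scavenger receptors (purple). Olr1 lies far out on the diagonal, Msr1 and Marco are above 0 on both axes, and Scarb1, Scarb2, Stab1 and Colec12 are below 0 on both, down to -0.64 for Stab1 in KO.

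The 250 bases before the annotated start of Olr1, the member that differed most between the numbers, and of Marco, the member with the largest absolute log2 ratio of KO to WT averaged over the numbers, are shown from RefSeq on GRCm38.p6, in the 5′ to 3′ direction of the gene. RefSeq starts were at hand for 5 of the 8 members. The Olr1 sequence is chr6:129507166-129507415 and that of Marco chr1:120505025-120505274, both on the minus strand. Both strands were searched for the AP-1 letters TGANTCA. They were also searched for GAGGAA, which PU.1 and other ETS factors bind. Capitals mark the matches.
Olr1: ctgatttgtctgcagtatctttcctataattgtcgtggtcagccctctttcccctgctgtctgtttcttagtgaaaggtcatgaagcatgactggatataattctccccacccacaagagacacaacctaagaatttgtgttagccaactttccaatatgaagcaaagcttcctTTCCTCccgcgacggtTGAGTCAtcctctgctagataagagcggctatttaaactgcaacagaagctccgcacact
Marco: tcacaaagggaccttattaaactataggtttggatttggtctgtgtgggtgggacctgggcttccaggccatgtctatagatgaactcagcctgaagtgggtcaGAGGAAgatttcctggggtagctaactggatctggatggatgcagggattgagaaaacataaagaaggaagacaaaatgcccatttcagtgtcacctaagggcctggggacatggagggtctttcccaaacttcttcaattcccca
The Olr1 sequence holds 1 AP-1 match, 60 bases before the start, and 1 ETS match. Marco holds 1 ETS match. Among 32817 promoter windows of the same length, 6.75% hold the AP-1 letters and 23.3% the ETS letters. Of the 5 members with a sequence, Olr1 was the only one with the AP-1 letters, and Marco, Stab1 and Olr1 held the ETS letters. The C/EBP letters TTGCNNAA were found in none of the 5, against 9.57% of all windows. The TATA box letters TATAAA were likewise found in none, against 12.4%. These letters were chosen with the expression values known, and a match is not evidence of binding.

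The comparison of KO with WT asked whether receptor expression differed with the genotype. By edgeR's quasi-likelihood test 0 of the 8 members were called (adjusted p under 0.05 with a change beyond 2-fold), as were 0% of all tested genes. At an unadjusted p under 0.05 there were 0 members, against 6.63% of all tested genes, and 0 members were called by the DESeq2 Wald test (1.46% of all tested genes) or the edgeR exact test (1.84%). The median log2 fold change of the members was -0.16, with 5 below 0 and 3 above. Over all tested genes it was 0.04. Both KO libraries lay below both WT libraries for 2 members, Marco and Cd36 (16.9% of tested genes), and above them for 0 (20.0% of tested genes). Counting either direction, 36.9% of tested genes did not overlap.

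Marco showed the lowest KO values relative to WT. Its counts were 256 and 353 in the WT libraries against 185 and 309 in the KO libraries, or 15.8 and 22.2 CPM against 9.93 and 15.7 CPM. Both KO libraries lay below both WT libraries, the higher KO value by a narrow margin. In edgeR's quasi-likelihood fit Marco differed by -0.57 on the log2 scale (SE 0.34, 95% interval -1.42 to 0.29, adjusted p 0.895). Within number 1 the log2 ratio was -0.67 and within number 2 it was -0.50, so that both pairs of libraries had the same direction. Leaving out KO replicate 2 gave -0.93, and leaving out KO replicate 1 gave -0.27.

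Cd36 had 57912 and 52982 counts in the WT libraries against 55092 and 61189 in the KO libraries, or 3570 and 3325 CPM against 2957 and 3109 CPM. Its log2 fold change was -0.19 (SE 0.18, interval -0.64 to 0.27, edgeR adjusted p 0.957). The log2 ratio was -0.27 for number 1 and -0.10 for number 2. For both Marco and Cd36 the separation of the genotypes depended on the scaling. It remained with DESeq2 size factors, under which 19% of tested genes lay below in both KO libraries and 17.4% above. With library totals alone, which moved the median log2 ratio of KO to WT over all genes from 0.04 to 0.20, KO and WT overlapped for all 8 members.

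For Msr1 and Olr1, the members that differed most between the numbers, the intervals were the widest. Msr1 had a log2 fold change of -0.21 (SE 0.65, interval -1.85 to 1.43, edgeR adjusted p 0.985), and its log2 ratios were -0.07 within number 1 and -0.26 within number 2. It became 0.70 without WT replicate 2, 0.30 without KO replicate 1, -0.77 without WT replicate 1 and -1.02 without KO replicate 2. Olr1 had a log2 fold change of -0.31 (SE 2.29, interval -6.12 to 5.50, edgeR adjusted p 0.993). Number 1 gave a ratio of -0.014 and number 2 one of -0.31. It ran from -6.17 without KO replicate 2 to 5.82 without WT replicate 2, and was -1.30 without WT replicate 1 and 0.68 without KO replicate 1. Within either number, KO and WT were within 0.31 of each other on the log2 scale for both genes, although each number holds 1 library per genotype and gives no error.

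The remaining 4 members had narrower intervals around 0. Colec12, a collectin that binds carbohydrates and oxidised LDL, had 61.2 and 49.8 CPM in WT and 56.1 and 44.4 CPM in KO, with a log2 ratio of -0.14 (edgeR, SE 0.26, adjusted p 0.973). Leaving out WT replicate 1 gave 0.016 and leaving out KO replicate 2 gave 0.017. Scarb1 had 44.0 and 39.9 CPM in WT and 51.6 and 39.3 CPM in KO, with a log2 ratio of 0.12 (edgeR, SE 0.25, adjusted p 0.978). Leaving out KO replicate 2 gave 0.30 and leaving out KO replicate 1 gave -0.095.

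Scarb2 had 275 and 227 CPM in WT and 264 and 239 CPM in KO, and its log2 fold change of 0.0053 (SE 0.24, interval -0.60 to 0.61, edgeR adjusted p 0.997) was the closest to 0. Stab1 had 26.0 and 22.4 CPM in WT and 32.4 and 20.8 CPM in KO, with a log2 ratio of 0.14 (edgeR, SE 0.29, adjusted p 0.978). Leaving out KO replicate 2 gave 0.42 and leaving out KO replicate 1 gave -0.22. Genotypes overlapped for all 4 of these genes. The log2 ratios within the numbers had opposite signs for Scarb1 (0.23 and -0.024), Scarb2 (-0.058 and 0.079) and Stab1 (0.32 and -0.11), as they had for 35.0% of all tested genes.

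**Figure D3:**
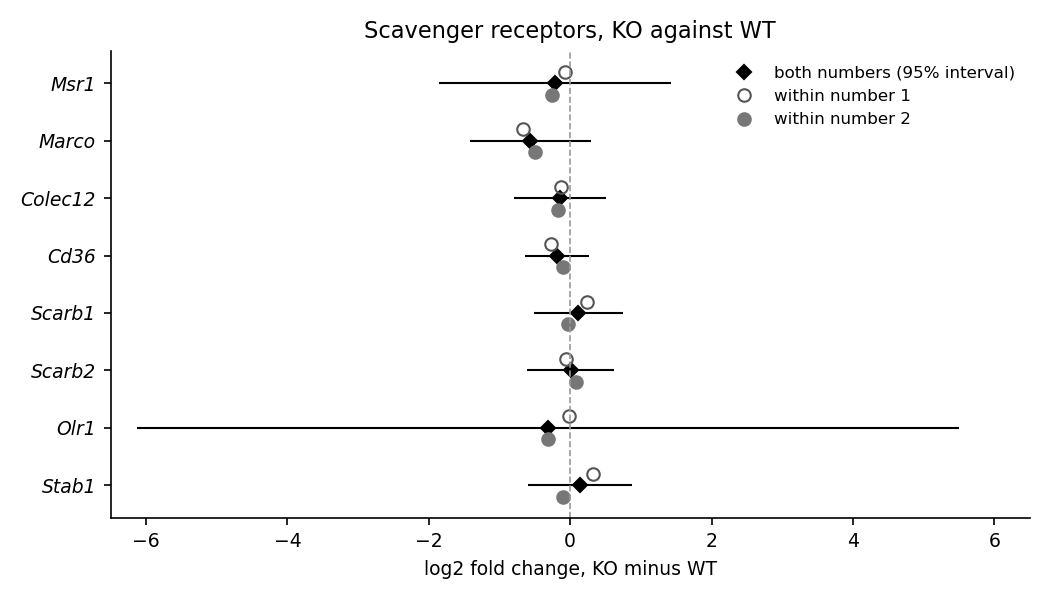
Log2 fold change of KO against WT for each scavenger receptor (diamonds, with 95% confidence intervals from edgeR's quasi-likelihood fit) and the ratio within each replicate number (open circles, number 1; filled circles, number 2). All 8 intervals include 0, and those of Olr1 and Msr1 are the widest.

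A list of 16 other scavenger receptors was examined beside the 8 members, and 11 of them were tested. By edgeR 0 were called, and 5 had an unadjusted p under 0.05 (6.63% of all tested genes), 4 of them higher and 1 lower in KO. The 4 with higher values were low in count. Scara3 had 5 and 6 counts in the WT libraries against 50 and 44 in the KO libraries, and its paralogue Scara5, a ferritin receptor, had 1 and 1 counts in the WT libraries against 17 and 16 in the KO libraries. Lrp2 (megalin) had 11 and 12 counts in the WT libraries against 58 and 49 in the KO libraries, and Scarf2 had 8 and 10 counts against 41 and 25. Their edgeR adjusted p was 0.250 for Scara3, 0.276 for Scara5, 0.289 for Lrp2 and 0.577 for Scarf2.

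In the same libraries 9 of the 10 stromal markers had both KO values above both WT values (20.0% of all tested genes), and 8 had an unadjusted p under 0.05, all higher in KO (6.63% in either direction). Col1a2 had 161 and 190 counts in the WT libraries against 1317 and 1016 in the KO libraries, and Pdgfra 229 and 321 counts against 1320 and 1448. The part of stromal cells in the counts of the 4 receptors was not tested. Markers of some blood cells lay lower in both KO libraries. The B cell markers summed to 21.6 and 22.6 CPM in WT and to 11.8 and 11.2 CPM in KO, the mast cell and basophil markers to 116 and 103 CPM against 43.1 and 52.5 CPM, and the erythroid markers to 10.3 and 7.34 CPM against 1.88 and 2.49 CPM. Among the neutrophil markers, named after their values were seen, S100a9 had 91 and 82 counts in WT libraries and 2 and 1 in KO libraries, and Retnlg 99 and 71 against 3 and 9. Their part in the receptor values was not tested. The fifth gene, named after its values were seen, was Clec7a, the beta-glucan receptor Dectin-1. It had 1293 and 1074 CPM in WT and 786 and 644 CPM in KO, with a log2 ratio of -0.73 (edgeR, SE 0.23, adjusted p 0.595). The ratio was -0.72 for number 1 and -0.74 for number 2. The median of the list was 0.014, but it was 1.12 without WT replicate 2 and 0.40 without KO replicate 1.

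Between the numbers, 2 of the 11 other receptors were at least 2-fold higher in number 2 within both genotypes (4.36% of all tested genes). These were Cxcl16, a membrane-bound chemokine that binds oxidised LDL, and Cd44, the hyaluronan receptor, both named after their values were seen. Cxcl16 had 49.0 and 269 CPM in WT and 36.4 and 210 CPM in KO. Cd44 had 237 and 816 CPM in WT and 308 and 745 CPM in KO. Cd68, the macrosialin of macrophage lysosomes, had 3279 and 3299 CPM in WT and 2888 and 2935 CPM in KO. Both KO libraries lay below both WT libraries for 2 of the 11, Cd68 and Clec7a (16.9% of all tested genes). They lay above them for 4 (20.0%). Cd163, a haemoglobin scavenger receptor, had between 4 and 7 counts and Stab2 between 2 and 11, and both were too low to be tested. Asgr1 was at 0 counts in every library.

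**Figure D4:**
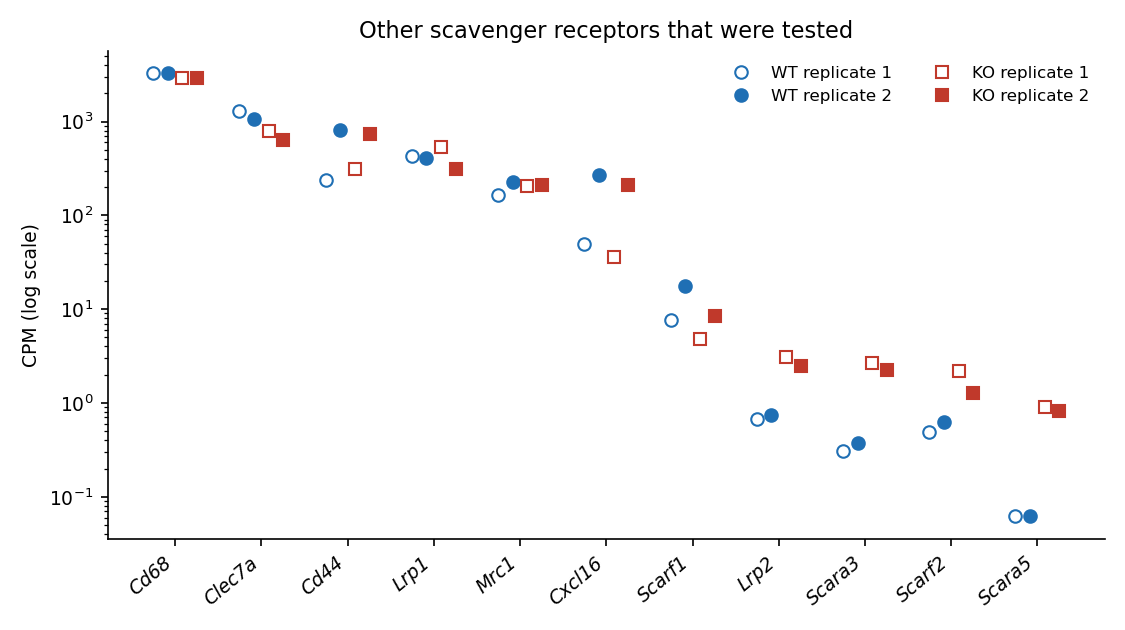
Level in CPM, on a log axis, of the 11 other scavenger receptors that were tested, by library (circles, WT; squares, KO; open, replicate 1; filled, replicate 2). The 4 receptors lowest in abundance lie higher in KO, and Cd44 and Cxcl16 lie higher in the libraries numbered 2.

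Ligands and cargo of the receptors formed a list of 12, of which 8 were tested and 0 were called. The unadjusted p was under 0.05 for 2 genes. Sparc, the matrix protein cleared by STAB1, had 444 and 429 counts in the WT libraries against 2458 and 2393 in the KO libraries (log2 ratio 2.22, SE 0.23, edgeR adjusted p 0.216). Vwf had 434 and 313 counts in the WT libraries against 919 and 687 in the KO libraries (log2 fold change 0.86, SE 0.30, edgeR adjusted p 0.654). Sparc is also made by stromal cells, whose markers lay higher in the same libraries, and their part in its counts was not tested. The median of the list was 0.05.

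Of 15 partners and trafficking adaptors, 14 were tested, 0 were called by edgeR and 1 had an unadjusted p under 0.05. This was Cd81, a tetraspanin found with CD36 in the membrane, with 300 and 286 counts in the WT libraries against 502 and 538 in the KO libraries (log2 fold change 0.57, SE 0.21, edgeR adjusted p 0.680). Between the numbers, 2 of the 14 were at least 2-fold higher in number 2 within both genotypes (4.36% of all tested genes). These were Tlr2, a Toll-like receptor that signals together with CD36, and the Src-family kinase Lyn, both named after their values were seen. Tlr2 had 346 and 10528 counts in the WT libraries against 417 and 11430 in the KO libraries. Lyn had 1804 and 5100 counts in the WT libraries against 2242 and 5508 in the KO libraries.

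Genes that handle lipid after uptake gave the last list, and all 18 were tested. By edgeR 0 were called, and Vldlr alone had an unadjusted p under 0.05, with 6 and 6 counts in the WT libraries against 19 and 36 in the KO libraries (edgeR adjusted p 0.493). The median log2 fold change was 0.06. Between the numbers, 5 of the 18 were higher in both libraries numbered 2 and 8 were lower, with 2 and 3 of them differing at least 2-fold within both genotypes. Over all tested genes these shares were 25.2% and 23.2%, and 4.36% and 2.42% at least 2-fold. Named after their values were seen, Abca1, a cholesterol exporter, had 483 and 1855 counts in the WT libraries against 1068 and 3613 in the KO libraries. Abcg1 lay the other way between the numbers, with 1682 and 734 counts in the WT libraries against 2407 and 936 in the KO libraries. Pparg, a nuclear receptor known to drive Cd36 transcription, had 2377 and 950 counts in the WT libraries against 2239 and 1171 in the KO libraries. The libraries numbered 2 thus held less Pparg, while Cd36 was at 3325 and 3109 CPM there against 3570 and 2957 CPM in those numbered 1.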

How the data were processed

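Total RNA of 4 macrophage libraries was sequenced by the authors. Reads were filtered with Seqtk, aligned with HISAT2 2.0.4 and counted per gene with StringTie 1.3.3b, and the authors deposited raw counts and FPKM for 34745 genes. Deposited FPKM values carry only library total and gene length, since the gene length they imply varied over the 4 libraries by no more than 0.00398% in 10564 genes with over 20 counts in each. Per the labels the build is mm39, but 27686 of the 34267 gene identifiers shared with GENCODE M21 matched in both ends on GRCm38, the build used for positions.

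For the counts, edgeR 4.0.16 was run in R 4.3.3 (filterByExpr with a minimum count of 10 and a minimum total of 15, TMM, glmQLFit and glmQLFTest, two-sided, genotype as the only term), with Benjamini-Hochberg adjustment over 12418 genes. Intervals come from the quasi-likelihood F statistic. CPM used TMM-scaled totals of the tested genes, and log2 ratios within a number or genotype had 0.5 counts added. Exact intervals of ratios between 2 libraries are binomial. With 2 libraries a genotype an exact permutation test cannot go below 0.333, so none was used. In simulated data with 200 of 12418 genes changed 4-fold, the test recovered 199 with 3 false calls, but 0 when the measured difference between the numbers was added. A replicate block then recovered 198 with 4 false calls.

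The members, gene lists and tests were chosen with earlier results of these data known. The 8 members and G3bp1 were always named. From each gene list up to 4 genes with an unadjusted p under 0.05 were named, and the 3 genes nearest in pattern to the 2 most variable members. Some items that these rules or lists cover are not reported here. Cell type marker lists were summed. Monocyte genes came to 228 and 259 CPM in WT and 291 and 291 CPM in KO, but the higher KO sum was that of Fn1, and Ly6c2, Plac8 and Chil3 lay lower in both KO libraries, with a list median log2 fold change of -0.93. T and NK cell genes came to 2.40 and 1.69 CPM in WT and 1.40 and 1.12 CPM in KO. Alternatives covered size factors and Wald test of DESeq2 1.42.0, filters, a replicate term, gene length (loess, span 0.5), each library left out, the edgeR exact test and limma 3.58.1 with a trend on log2(FPKM + 1) or log2(FPKM + 0.1). No sample was left out.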

Additional observations from a re-analysis of the deposited data

How the results depend on the processing

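No member was called under any of the 14 alternative fits, and Marco and Cd36 kept their sign in all of them. Over these fits Marco ran from -0.93 to -0.27 and Cd36 from -0.37 to -0.031. Of the 12418 tested genes, 0 were called in the main test, 181 in the DESeq2 Wald test (1.46%) and 229 in the edgeR exact test (1.84%). In limma on log2(FPKM + 0.1), 2 of 13407 genes were called. What a replicate number stands for is not given in the labels, and with 2 pairs the pairing could not be settled. After removing the mean of each genotype, libraries of the same number correlated at 0.692 over genes. The replicate block raised the calls to 664 of the 12418 tested genes. With gene length correction as well, the block called 423 of 12418, and 0 of the 8 members were called in either. In these paired fits Marco was -0.58 (edgeR adjusted p 0.136) and -0.47 (0.192), and G3bp1 was -0.60 (0.0853) and -0.76 (0.0224), under the minimum fold change. The cause of the differences between fits was not tested.

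Log2 fold changes close to 0 changed sign. With the gene length correction, without and with the block, Scarb1 was -0.15 and -0.15, Scarb2 -0.15 and -0.14, and Stab1 -0.17 and -0.18. Scarb2 was -0.036 with DESeq2 size factors and in the Wald test, and -0.014 with no filter. Colec12 was 0.0077 and 0.0075 in limma with a pseudocount of 1 and 0.1. Leaving out 1 library gave ranges of -1.02 to 0.70 for Msr1, -6.17 to 5.82 for Olr1, -0.095 to 0.30 for Scarb1, -0.16 to 0.16 for Scarb2, -0.22 to 0.42 for Stab1, -0.32 to 0.017 for Colec12, -0.93 to -0.27 for Marco, -0.27 to -0.13 for Cd36 and -1.02 to -0.19 for G3bp1. The list medians ran from -0.11 to 1.12 for other scavenger receptors, -0.13 to 0.18 for ligands and cargo, -0.0083 to 0.48 for partners and adaptors, and -0.091 to 0.19 for lipid handling.

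Chosen after seeing the data, scaling by library totals alone left 0 members without overlap between KO and WT, against 2, with 31.6% of tested genes above and 9.39% below. DESeq2 size factors, also chosen then, left the same 2 members, with 17.4% of tested genes above and 19% below. Annotated GENCODE lengths gave levels of 903 CPM per kilobase for Cd36, 6.06 for Colec12, 5.14 for Scarb1 and 2.47 for Stab1, which differ from FPKM by more than 1 SD. Olr1, at 14 and 16 counts in the libraries numbered 1, is limited there by depth.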

Other observations

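The neighbours of Olr1 on chromosome 6 were examined after its values were seen, since the gene lies in a cluster of C-type lectin genes. Of the 28 genes of the table within 300000 bases on either side, Olr1 included, 10 were tested. Olr1 and Cd69, an early activation marker, were higher in both libraries numbered 2 than in both numbered 1, and 4 genes were lower (25.2% and 23.2% of all tested genes). Cd69 had 28 and 254 counts in WT and a log2 ratio of number 2 to 1 of 3.18 in WT and 2.26 in KO. Clec7a, the nearest tested gene below Olr1, had log2 ratios of -0.27 and -0.29. On the other side, 1700101I11Rik, the nearest tested gene, had ratios of -0.31 and -0.15, and Gabarapl1, which it overlaps, had ratios of -0.31 and -0.13. Clec1a had ratios of -2.62 and -2.94, opposite to those of Olr1. The nearest tested genes on either side of Olr1 thus did not show its difference between the numbers.

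Between KO and WT, 4 of the 10 genes lay below both WT libraries in both KO libraries (16.9% of all tested genes) and 0 lay above (20.0%). These included Clec2d, with a log2 fold change of -1.06 and an unadjusted p of 0.0267 (edgeR), and Clec12a at -0.54. None had an adjusted p under 0.05 in edgeR's quasi-likelihood test, and 2 of the 10, Clec2d and Clec7a, had an unadjusted p under 0.05.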
